A study of Mus musculus with 9 samples.

Results

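Of the Msx and Dlx genes on the array, 6 were chosen: Msx1, Msx2, Dlx1, Dlx2, Dlx3 and Dlx5. They encode homeodomain transcription factors and were followed through 3 days of mouse facial development. A probe set, the group of oligonucleotides that reports 1 transcript on the array, was taken as a member when its annotation named exactly 1 of these 6 symbols. Each of the 6 genes had 1 such probe set, so there were 6 among 12488 probe sets and 6 genes among 8251 with a single-symbol probe set. The samples were total RNA of embryonic mouse orofacial tissue, from which face and palate arise, on gestation days (GD) 12, 13 and 14. Each day had 3 arrays, numbered 1 to 3 in the sample titles, and every probe set has 1 intensity on each array. No strain, genotype, treatment or sex is named for any group, and the labels leave unsaid whether separate litters or pools were used for the arrays of 1 day. Every p-value therefore measures only the spread between these samples, which may be technical.

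Msx and Dlx proteins bind DNA through a homeodomain, and many of their sites share the core TAATTA. Msx1 and Msx2 act largely as repressors in the mesenchyme under the facial epithelium, where BMP ligands induce them, and loss of Msx1 causes cleft palate and missing teeth in mice. The Dlx genes lie in the genome as linked pairs and are expressed as a nested code along the jaw arches. Dlx1 and Dlx2 cover both upper and lower jaw, Dlx5 covers the lower jaw, and endothelin 1 acts upstream of Dlx5 there. Dlx3 is also a factor of stratified epithelium, and Dlx3 and Dlx5 are both known from bone-forming cells. Dlx1 and Dlx2 also mark inhibitory neuron precursors of the forebrain, a tissue next to the face.

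Array medians lay between 47.15 and 56.95 intensity units. The tissue label was set beside 10 facial mesenchyme markers. All passed the filter on dim probe sets, but so did 9326 of all 12488, so passing does not test the tissue. Snai2, a transcription factor of neural crest cells, had 1745 ± 528 on GD12 (SD, n = 3), and Twist1, a factor of head mesenchyme, had 1557 ± 210 (SD, n = 3). These were the brightest of the list on GD12, while Vim (27.9 ± 13.8) and Tfap2b (37.3 ± 25.3; SD, n = 3 each) lay under the array medians. Actin control probes at the 3' end of the transcript are set against those at the 5' end to judge how intact the RNA is. This ratio was 1.42, 1.25 and 1.37 on the third arrays of GD12, GD13 and GD14, the lowest of each day. Array 1 went from 1.54 through 2.09 to 2.44 over the 3 days, and array 2 from 1.76 through 2.23 to 2.29. The third array thus stood apart on the later days, but on GD12 it lay closer to array 1 than array 2 did. In arrays 1 and 2 the ratio rose with the day, so there its part in a difference between days cannot be separated. Arrays of the same number also varied together across days, so the number was tried as a block in the model. With arrays there is no read depth, and precision is limited by how many there are.

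Between GD12 and GD14 the 6 genes went in both directions. Dlx3 rose 2.96-fold and Msx1 fell 1.94-fold, and these were the only 2 of the 6 that passed in the reported fit. That fit, made with limma across 9326 probe sets without the array number, called 4.3% of all tested probe sets in this comparison at an adjusted p under 0.05. With the array number as a block, Dlx1 (adjusted p = 0.0473) passed as well as Msx1 and Dlx3. The block gave 620 calls over all tested probe sets, against 401 without it. Without the third array of every day Msx1 (adjusted p = 0.0489) and Dlx1 (0.0404) passed and Dlx3 (0.0640) did not. That setting gave 311 calls over all tested probe sets. Msx2, Dlx1 and Dlx2 had lower means on GD14 than on GD12, and Dlx5 had a higher one, without passing in the reported fit. The 3 values of GD12 and the 3 values of GD14 did not overlap for 5 of the 6 genes, all except Dlx2, where such separation was seen in 22.3% of tested probe sets. The median log2 change of the 6 was -0.44, beside -0.02 over all tested probe sets. The 6 genes were chosen with earlier results of these data known, so these counts describe them and add no support.

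**Figure D1:**
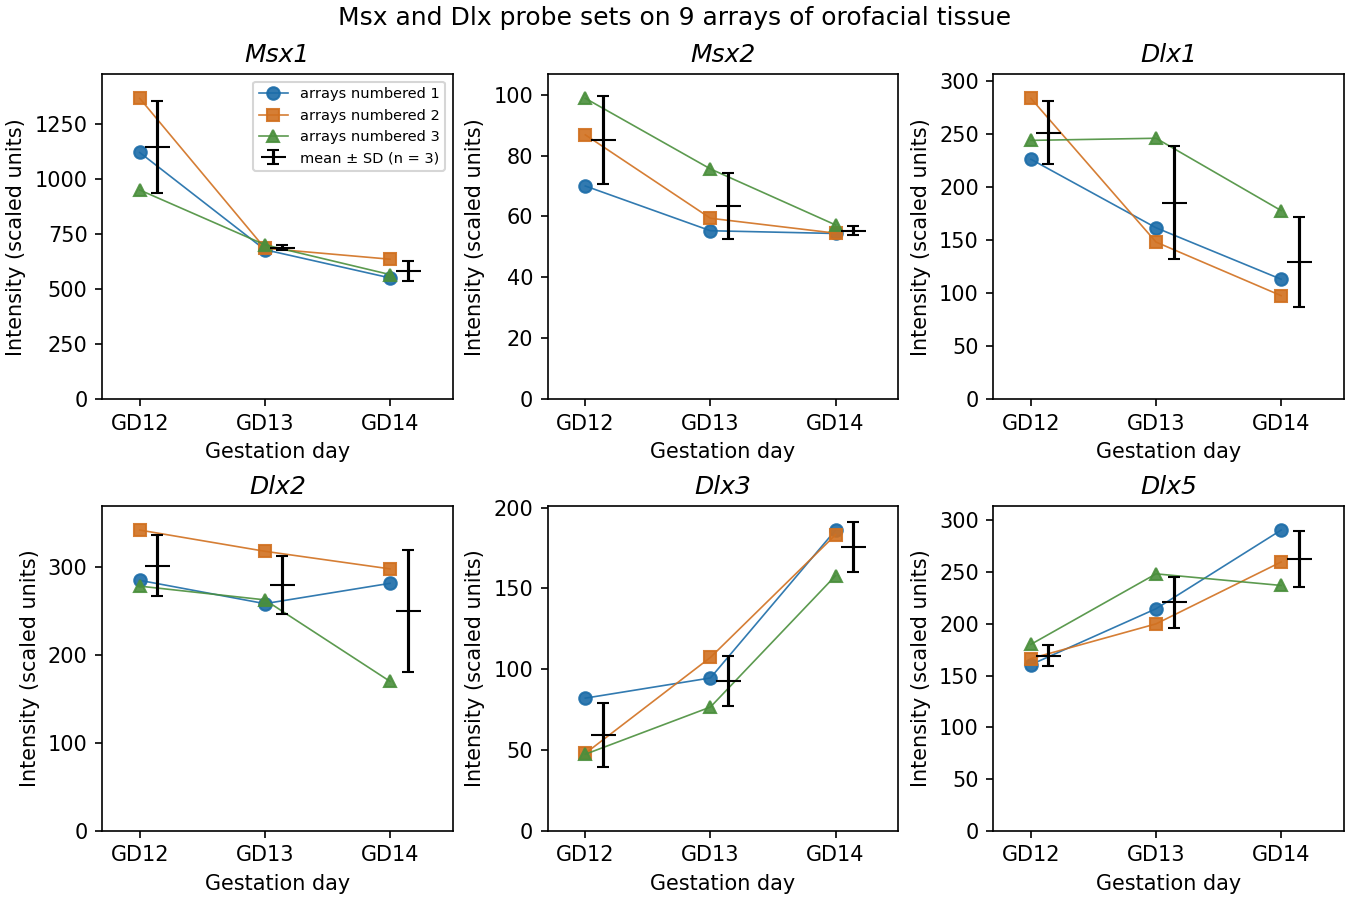
Intensity in scaled units (vertical axes, from 0) of the 6 probe sets on GD12, GD13 and GD14 (horizontal axes). Coloured lines join arrays that share a number, and black marks with bars give the mean ± SD (n = 3 arrays). Msx1 lies at 949.5 or more on GD12 and at 635.2 or less on GD14, while Dlx3 goes from at most 82.1 to at least 157.9.

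Msx1 was read from probe set 101526_at. Its intensity was 1119.8, 1365.8 and 949.5 on the GD12 arrays 1 to 3, then 678.3, 685 and 700.8 on GD13, and 550.3, 635.2 and 565.4 on GD14. The 3 days did not overlap at either step, and each day lay wholly below the one before. Such an ordered, separate fall was seen in 0.718% of tested probe sets, a share that leaves out ordered rises. The day means were 1145 ± 209, 688 ± 11.6 and 584 ± 45.3 (SD, n = 3 each), with most of the difference in the first step and the widest spread on GD12.

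In the limma fit Msx1 fell by 0.96 on the log2 scale from GD12 to GD14 (SE 0.17, adjusted p = 0.0142). The 95% interval of the fall ran from 1.49-fold to 2.52-fold. The call ended without the first array of GD12 (adjusted p = 0.0547) and without the first array of GD14 (adjusted p = 0.0673), and its adjusted p lay between 0.0155 and 0.0673 when single arrays were left out. It also ended when GD12 and GD14 alone entered the fit (adjusted p = 0.0620). The first step gave a log2 difference of -0.72 (SE 0.17, adjusted p = 0.126) and the second -0.24 (SE 0.17, adjusted p = 0.871). Neither passed. In the same-numbered pairs of arrays the first was -0.72, -0.99 and -0.44 and the second -0.30, -0.11 and -0.31, below 0 in all 3 pairs at both steps.

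Msx2, the second Msx gene of the face and skull, was read from probe set 102956_at. On GD12 it gave 70, 86.8 and 98.8, on GD13 55.3, 59.4 and 75.6, and on GD14 54.4, 54.5 and 57.2. GD12 and GD14 did not overlap, but GD13 overlapped both, and the GD14 arrays lay closest to each other. The means were 85.2 ± 14.5, 63.4 ± 10.7 and 55.4 ± 1.59 (SD, n = 3 each). The log2 difference from GD12 to GD14 was -0.58 (SE 0.18, adjusted p = 0.125), with a 95% interval from -0.99 to -0.18. The difference was below 0 in all 3 same-numbered pairs, from -0.76 to -0.35. Msx2 did not pass, nor did it in any of the 21 alternatives (adjusted p from 0.0547 to 0.285).

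RefSeq promoter sequence was found for 4 of the 6 genes, Msx1, Msx2, Dlx1 and Dlx2. None was found for Dlx3 and Dlx5, the genes with higher means on GD14 than on GD12. The windows therefore cannot be compared by direction of change. The 250 bases before the transcription start are printed 5′ to 3′ on the strand of the gene, from build GRCm38.p6. Capitals mark the letters of 4 motifs searched on both strands: TAATTA, the homeodomain core, CCAAT, the GC box GGGCGG and the TATA box TATAAA. The windows of the Msx genes are at chr5:37824586-37824835 (minus strand) for Msx1 and chr13:53472781-53473030 (minus strand) for Msx2.
Msx1: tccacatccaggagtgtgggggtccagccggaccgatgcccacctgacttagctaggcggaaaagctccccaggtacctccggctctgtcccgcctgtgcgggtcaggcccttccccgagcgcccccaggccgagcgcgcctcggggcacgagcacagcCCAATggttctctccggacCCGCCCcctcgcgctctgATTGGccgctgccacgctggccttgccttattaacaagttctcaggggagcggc
Msx2: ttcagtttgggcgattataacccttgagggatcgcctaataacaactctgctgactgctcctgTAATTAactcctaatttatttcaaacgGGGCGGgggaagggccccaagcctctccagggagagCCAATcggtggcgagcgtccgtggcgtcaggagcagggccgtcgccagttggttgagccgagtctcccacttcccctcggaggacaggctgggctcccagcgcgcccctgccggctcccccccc
The Msx2 window held TAATTA, 187 to 182 bases before the start, and the Msx1 window did not. These letters were found in 4.84% of 32851 promoter windows of the same length. Both Msx windows held CCAAT, which 33.8% of all windows held, and both held GGGCGG or its reverse complement, which 32.7% held. In Msx1 CCAAT occurred at 91 to 87 bases before the start and as its reverse complement at 54 to 50. TATAAA, held by 12.4% of windows, was in neither. A match describes letters in the window and does not show that a factor binds there.

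Dlx1 was read from probe set 98394_at. The GD12 arrays had 226.4, 283.9 and 244.2, those of GD13 had 161.7, 148.2 and 246.2, and those of GD14 had 113.1, 97.6 and 177.9. The GD14 values all lay below those of GD12, while GD13 overlapped both days. The third array was the highest of its day on GD13 and on GD14. Day means were 252 ± 29.4, 185 ± 53.1 and 130 ± 42.6 (SD, n = 3 each). The log2 difference from GD12 to GD14 was -0.98 (SE 0.27, adjusted p = 0.0827; 95% interval -1.59 to -0.38), close in size to that of Msx1 but with a larger error. Dlx1 did not pass in the fit as fixed. With the replicate number as a block its adjusted p was 0.0473, without the third array of GD14 it was 0.0356 (log2 -1.23), and without the third array of every day, an alternative chosen after the data were seen, it was 0.0404. With the actin ratio as a covariate the log2 difference was -0.72 (adjusted p = 0.0758). The same-numbered pairs gave -0.98, -1.51 and -0.45.

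Dlx2 is the genomic neighbour of Dlx1, with 0 protein-coding genes between them, and was read from probe set 92332_at. Its GD12 arrays had 284.6, 341.7 and 278, its GD13 arrays 258.1, 317.6 and 262.4, and its GD14 arrays 281.2, 297.6 and 169.8. All 3 days overlapped, and the third array of GD14 was the lowest of the 9. Its means were 301 ± 35.0, 279 ± 33.2 and 250 ± 69.5 (SD, n = 3 each). The log2 difference from GD12 to GD14 was -0.31 (SE 0.23, adjusted p = 0.563), and the 95% interval from -0.83 to 0.21 still holds a fall of 1.77-fold. Without the third array of GD14 the difference was -0.05, and with the actin ratio as a covariate it was -0.50 (adjusted p = 0.184). On that array Dlx1 was the highest of its day and Dlx2 the lowest.

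The promoter windows of the neighbouring pair are at chr2:71529195-71529444 (plus strand) for Dlx1 and chr2:71546755-71547004 (minus strand) for Dlx2, shown because the genes share a locus.
Dlx1: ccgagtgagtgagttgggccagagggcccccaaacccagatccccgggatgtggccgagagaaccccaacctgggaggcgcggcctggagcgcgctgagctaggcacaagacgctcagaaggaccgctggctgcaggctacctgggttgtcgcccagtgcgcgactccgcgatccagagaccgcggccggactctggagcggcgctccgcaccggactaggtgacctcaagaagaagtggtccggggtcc
Dlx2: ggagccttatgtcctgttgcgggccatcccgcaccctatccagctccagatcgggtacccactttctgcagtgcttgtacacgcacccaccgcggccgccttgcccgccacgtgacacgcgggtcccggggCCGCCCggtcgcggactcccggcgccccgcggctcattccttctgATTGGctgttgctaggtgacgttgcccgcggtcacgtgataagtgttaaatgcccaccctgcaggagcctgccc
The Dlx1 window held none of the 4 motifs. The Dlx2 window held the reverse complement of CCAAT 74 to 70 bases before the start and that of GGGCGG 119 to 114 bases before it. The 4 windows of Msx1, Msx2, Dlx1 and Dlx2 had GC contents of 68.0%, 61.6%, 68.0% and 66.4%, against a median of 52.4% over all windows.

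Dlx3 was read from probe set 99328_at. Arrays 1 to 3 of GD12 had 82.1, 47.9 and 47.4, those of GD13 had 94.6, 107.3 and 76.6, and those of GD14 had 186.1, 183.2 and 157.9. Each GD14 array lay above all GD12 and GD13 arrays. GD12 and GD13 overlapped through the first GD12 array, which was above the third GD13 array. The means were 59.1 ± 19.9, 92.8 ± 15.4 and 176 ± 15.5 (SD, n = 3 each).

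From GD12 to GD14 Dlx3 rose by a log2 of 1.57 (SE 0.23, adjusted p = 0.00735), and the 95% interval of the rise ran from 2.05-fold to 4.28-fold. Single omitted arrays left the adjusted p between 0.00414 and 0.0387, so each of these 9 fits kept the call. The call ended when the third array of every day was left out together (log2 1.51, adjusted p = 0.0640). The first step gave 0.66 (SE 0.23, adjusted p = 0.335) and the second 0.91 (SE 0.23, adjusted p = 0.331), and neither passed. All 3 same-numbered pairs were above 0 at each step, from 0.20 to 1.12 in the first and from 0.76 to 1.02 in the second.

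Dlx5, read from probe set 92930_at, had 160.5, 166.4 and 180.1 on the GD12 arrays, then 214.5, 199.9 and 248.2 on those of GD13 and 290.5, 259.7 and 237 on those of GD14. GD12 lay wholly below GD13 and GD14, which overlapped each other because the third array was the highest of GD13 and the lowest of GD14. The means were 169 ± 10.1, 221 ± 24.8 and 262 ± 26.9 (SD, n = 3 each). The log2 difference from GD12 to GD14 was 0.62 (SE 0.15, adjusted p = 0.0585; 95% interval 0.28 to 0.97) and did not pass. It passed with array weights (0.70, adjusted p = 0.0203) and with the filter at the median (adjusted p = 0.0266). With a variance trend and robust variances together it passed as well (adjusted p = 0.0282). Its adjusted p was 0.0599 to 0.192 when single arrays were left out.

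**Figure D2:**
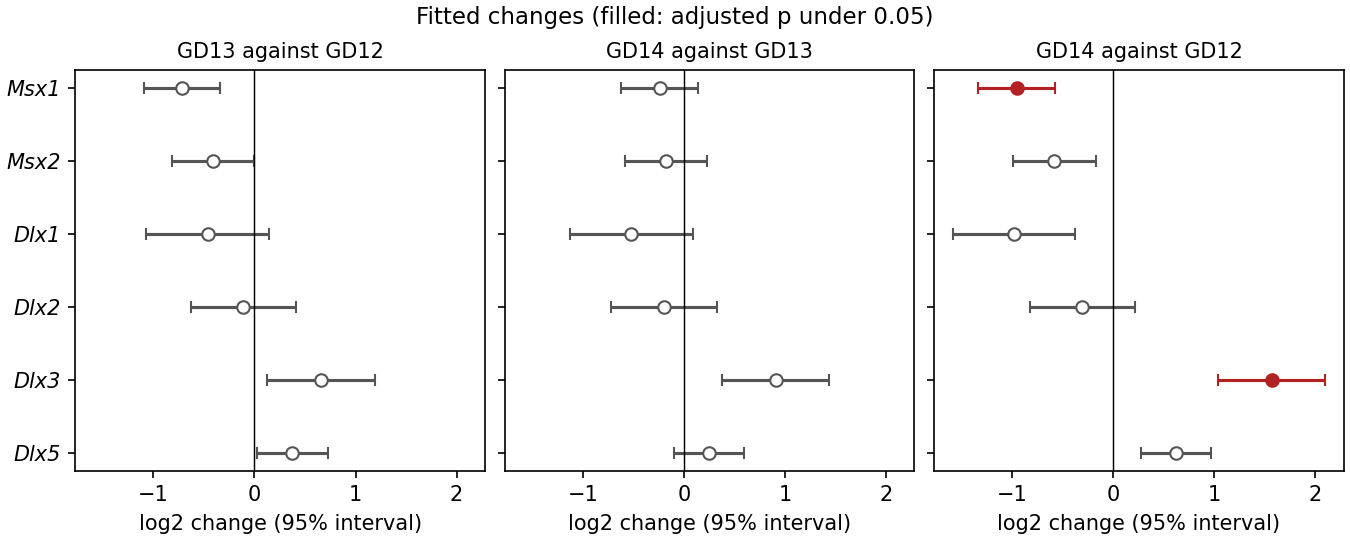
Fitted log2 change (horizontal axes) of the 6 genes in the 3 comparisons, with 95% intervals from limma. Filled red points mark an adjusted p under 0.05, which only Msx1 (-0.96) and Dlx3 (1.57) reach, both in GD14 against GD12.

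The daily steps held no calls among the 6. In GD13 against GD12, 0 of 6 passed in limma (0.643% of all tested probe sets passed), and 4 had an unadjusted p under 0.05 (11% of all). Msx1 passed this step with array weights (adjusted p = 0.0336) and with a variance trend and robust variances together (adjusted p = 0.0345). In GD14 against GD13, 0 of 6 passed (0.0429% of all), and Dlx3 was the single gene with an unadjusted p under 0.05 (7.18% of all). Values of the 2 days did not overlap for Msx1 and Dlx5 at the first step (18.5% of all) and for Msx1 and Dlx3 at the second (13% of all). The moderated F-test over the 3 days called Dlx3 (adjusted p = 0.0218) and Msx1 (adjusted p = 0.0376), against 2.58% of all tested probe sets. The second step minus the first did not differ from 0 for any of the 6 (0 calls, 0% of all, and 0 of 6 with an unadjusted p under 0.05, beside 4.86% of all). These differences lay between -0.13 and 0.48 on the log2 scale, with 95% intervals from -1.10 to 0.99 for Dlx1, the widest, and from -0.73 to 0.47 for Dlx5, the narrowest.

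The related genes were also set against each other as 3 pairs, by the per-array difference of their log2 values on GD14 and on GD12. From GD12 to GD14 this difference changed by 0.94 between Dlx3 and Dlx5, with no overlap between the days, and the exact two-sided permutation test gave 0.10, the smallest value that 3 arrays against 3 allow (0.30 adjusted over the 3 pairs). The changes of Dlx1 and Dlx2 differed by -0.68 and those of Msx1 and Msx2 by -0.37, each with overlapping days and an exact permutation p of 0.40 (0.40 adjusted). With 3 arrays a day this test cannot pass 0.05, so it does not settle whether any pair changed unequally. Between same-numbered arrays the difference changed by 0.31, 1.24 and 1.28 for Dlx3 against Dlx5, by -0.97, -1.31 and 0.25 for Dlx1 against Dlx2, and by -0.67, -0.46 and 0.01 for Msx1 against Msx2.

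The other family members on the array were Msx3, a gene of the dorsal neural tube, Dlx4 and Dlx6. Dlx6, the genomic neighbour of Dlx5, had 10.4 ± 2.23 on GD12, 14.0 ± 1.79 on GD13 and 18.6 ± 13.9 on GD14 (SD, n = 3 each). Dlx4, the neighbour of Dlx3, had 14.3 ± 14.5, 14.8 ± 9.09 and 14.0 ± 12.9 (SD, n = 3 each). Both pairs also had 0 protein-coding genes between them. Msx3 had 40.7 ± 24.3, 49.9 ± 15.8 and 30.2 ± 6.36 (SD, n = 3 each). None of these 3 passed in any comparison, and the Dlx4 and Dlx6 values lay close to 10.4, the intensity under which probe sets were left out as dim.

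Genes whose 9 log2 values followed each member most closely were found among 8393 tested single-symbol probe sets, by Pearson's r over the 9 arrays. The arrays share their days, and the 3 highest of so many are high by selection, so r is given as a description. For Msx1 they were Ube2d2a, a ubiquitin-conjugating enzyme, Tcf12, a bHLH factor (r = 0.96 each), and Prom1, a membrane glycoprotein (r = 0.95). Prom1 had 244 ± 14.3, 159 ± 16 and 139 ± 8.83 on the 3 days (SD, n = 3 each). For Msx2 they were the homeobox gene Six4 (r = 0.97), Fam107b (r = 0.96) and Zwint, a kinetochore protein (r = 0.96). Six4 had 117 ± 34.6, 65.6 ± 18.3 and 51.3 ± 6.94 (SD, n = 3 each).

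Dlx1 was followed most closely by Dnmt3a, a de novo DNA methyltransferase (r = 0.98), Wipi2, an autophagy protein, and Hira, a histone chaperone (r = 0.97 each). Dnmt3a had 125 ± 17.5, 77.0 ± 19.7 and 52.9 ± 17.3 (SD, n = 3 each). For Dlx2 they were Osbpl11 (r = 0.96), Bms1 (r = 0.96) and Ireb2, an iron regulatory protein (r = 0.95). The Dlx3 list held Ctss, a lysosomal cathepsin of antigen-presenting cells, the chemokine Ccl2 (r = 0.98 each) and Csrp1, a LIM domain protein (r = 0.97). Ctss had 77.5 ± 17.9, 134 ± 24.3 and 232 ± 14.9 (SD, n = 3 each). For Dlx5 they were Map1lc3a and Aplp2 (r = 0.97 each) and Gas6, a receptor ligand (r = 0.95).

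Genes around the Msx and Dlx factors were taken from lists written from textbook knowledge, each read from its brightest tested probe set. From GD12 to GD14, 0 of 15 tested upstream signal genes rose and 0 fell in limma, with a median log2 change of -0.07, beside -0.01 over 6868 tested genes, of which 248 rose and 67 fell. Bmp4, the ligand best known to induce Msx1 and singled out after its values were seen, had 230 ± 19.5 on GD12, 193 ± 24.7 on GD13 and 228 ± 8.91 on GD14 (SD, n = 3 each). The brightest of the list were the receptor gene Fgfr2 (713 ± 141 and 913 ± 224 on GD12 and GD14) whose 2 dimmer probe sets gave log2 differences of 0.87 and -0.27, and Smad1, a BMP signal transducer (513 ± 16.3 and 490 ± 48.4; SD, n = 3 each). Fgf8 and Bmpr1b were too dim to be tested. Without the third array of every day 1 gene of the list was called lower, Wnt5a.

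Of 6 BMP response genes 0 passed, with a median of -0.20. Id2, an inhibitor of bHLH factors, had 1793 ± 210 on GD12 and 1848 ± 101 on GD14, and its relative Id3 had 948 ± 60.3 and 752 ± 39.7 (SD, n = 3 each; log2 -0.33, adjusted p = 0.252). Of 3 tested jaw patterning targets 0 passed (median 0.24). Hand1 had 67.1 ± 17.2 and 86.1 ± 48.9, and Gsc, a homeobox gene of the jaw arches, had 72.5 ± 19.8 and 85.9 ± 9.75 (SD, n = 3 each), while Hand2 was too dim to be tested. Among 9 cofactors of Msx and Dlx proteins 0 passed and the median was -0.32. Maged1, which binds both Msx and Dlx proteins, had 1965 ± 114 and 1950 ± 305, and the corepressor Ctbp1 had 898 ± 74.6 and 869 ± 127 (SD, n = 3 each).

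Of 15 other homeobox factors of the face 0 passed, with a median of -0.25. Shox2, a factor of the anterior palate, had 986 ± 79.0 on GD12 and 887 ± 168 on GD14, and Lhx8, needed for palate closure, had 820 ± 80.0 and 605 ± 58.2 (SD, n = 3 each; log2 -0.44, adjusted p = 0.218). In these 5 lists the daily steps gave 0 calls as well in limma.

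Many markers of osteoblasts and oral epithelium, cell types known to express some of these genes, rose over the same days. Of 7 osteoblast markers 6 rose from GD12 to GD14 and 0 fell, with a median log2 change of 2.08. The bone matrix gene Ibsp had a change of 5.71 (adjusted p = 5.88e-05), while its dimmer second probe set gave 1.23. Collagen I, read from Col1a1, had 2.49 (adjusted p = 0.000324; 1.42 on a second probe set), and Alpl, the alkaline phosphatase of mineralizing tissue, had 2.08 (adjusted p = 0.000215). The summed intensity of these 7 genes was 3222 to 4381 on GD12, 6603 to 7076 on GD13 and 13980 to 17388 on GD14. Its largest terms on GD12 and GD14 were the collagen I genes, Col1a1 (means 1064 and 5922) and Col1a2 (2240 and 4801). Col1a2 had a log2 change of 1.10, but its dimmer second probe set gave 0.14. Of 15 tested oral epithelium markers 9 rose and 0 fell, with a median of 0.95, and 6 rose without the third array of every day. Krt6a, an epithelial keratin, had a change of 3.09 (adjusted p = 5.88e-05) and Lgals7, the epithelial galectin-7, one of 3.05 (adjusted p = 0.00301). Of the 6 that did not pass in the reported fit, Krt18, Epcam, Sfn and Pkp1 had log2 changes from 0.66 to 0.82. The remaining ones, Cdh1 and Trp63, had -0.02 and -0.21. The sum over 18 epithelial genes was 1509 to 1817, then 2758 to 3041, then 3645 to 4442, while the basal keratins Krt5, Krt14 and Krt15 had day means of at most 8.23. Both sums were higher on each later day without overlap between days. The part of these cells in the values of Dlx3 and Dlx5 was not tested. In such bulk tissue, a change in the number of cells of a type and a change in RNA per cell cannot be told apart.

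**Figure D3:**
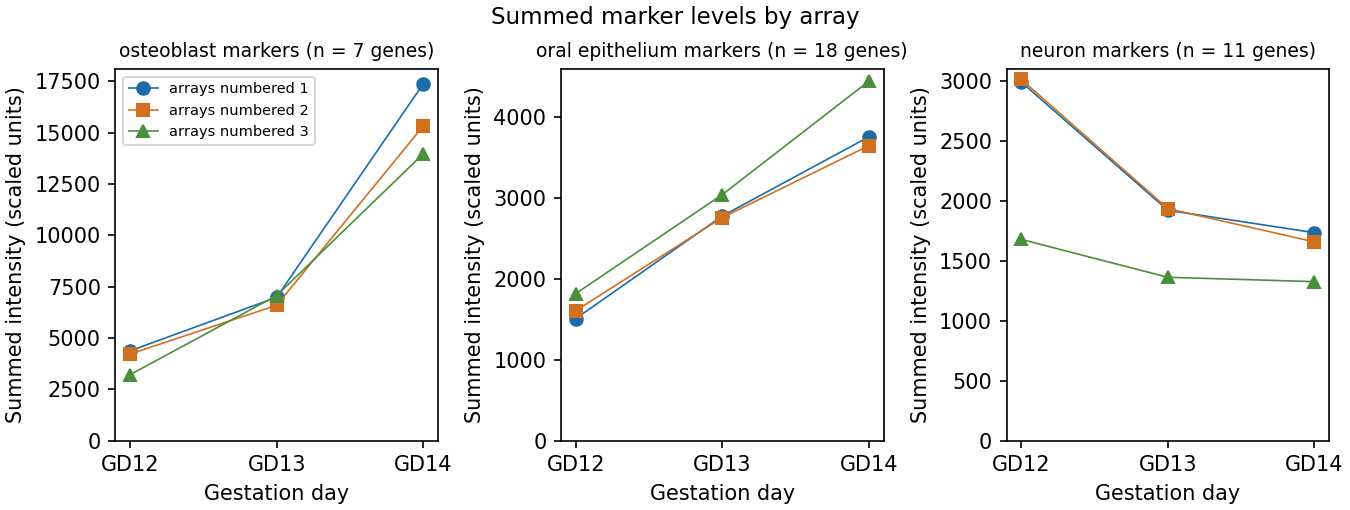
Summed intensity in scaled units (vertical axes, from 0) of the osteoblast, oral epithelium and neuron marker lists on each array, by gestation day. Lines join arrays of the same number. The osteoblast and epithelial sums are higher on each day than on the one before, and the neuron sum of the third array (1682, 1365 and 1329) is the lowest of each day.

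Facial mesenchyme markers, the cells in which Msx1 is mainly known, had 0 of 10 genes passing and a median of -0.11. Their sum overlapped between the days, at 5754 to 7518, 6195 to 7188 and 5757 to 7342, and the third array was the lowest of each day. Snai2 was at 1461 ± 274 and Col3a1, a fibrillar collagen chain, at 1999 ± 369 on GD14 (SD, n = 3 each), against 1312 ± 426 for Col3a1 on GD12 (SD, n = 3). The part of mesenchyme content in the Msx1 values was not tested.

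For Dlx1 and Dlx2 the forebrain was checked, and 4 of 11 marker genes were on the array. Gad2 and Slc32a1, which define inhibitory neurons, had day means of at most 3.4 intensity units, under the filter intensity. Gad1 had 16.8 ± 4.17 on GD12 and 12.9 ± 9.77 on GD14, and Six3 had 26.6 ± 15.1 and 19.6 ± 6.33 (SD, n = 3 each); neither passed. The sum of the 4 was 34.7 to 69.6 on GD12, 31.0 to 51.1 on GD13 and 16.5 to 53.0 on GD14. General neuron markers had 0 of 8 tested genes passing and a median of -0.72, while without the third array of every day 2 fell, Stmn2 and Elavl4. In the reported fit Stmn2 had a log2 difference of -0.72, but its 2 dimmer probe sets gave 0.67 and -0.32. The sum of the neuron markers was 1682 to 3018 on GD12, 1365 to 1938 on GD13 and 1329 to 1738 on GD14. Tubb3, a neuronal tubulin, had 1062 ± 114 on GD12 and 663 ± 109 on GD14, and Gap43, a growth cone protein, had 541 ± 206 and 413 ± 125 (SD, n = 3 each). The third array had the lowest neuron sum of its day on all 3 days, and its Dlx1 value was the highest on GD13 and GD14 but lay between the other two on GD12, and the part of this in the Dlx1 values was not tested.

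Skeletal muscle and red cell markers also moved. Of 11 muscle markers 6 rose and 0 fell (median 1.23), and their sum was 1220 to 1578 on GD12 and 2700 to 4221 on GD14, where the third array was lowest. Skeletal actin, Acta1, had a log2 change of 2.97 (adjusted p = 0.000813), Myl1 one of 1.65 and Myl4 one of 1.87, although a second Myl4 probe set gave 0.06. Of 4 embryonic red cell markers 3 fell and 0 rose, with Hba-x, an embryonic globin, at -3.21 (adjusted p = 5.88e-05), Hbb-bh1 at -3.37 and Hbb-y at -1.67. The remaining marker, Alas2, went the other way (log2 1.14, adjusted p = 0.0593 in limma) and did not pass. The sum of the 4 was 13291 to 17726 on GD12, 6872 to 8084 on GD13 and 3576 to 4251 on GD14. The part of these cells in the values of the Msx and Dlx genes was not tested.

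**Figure D4:**
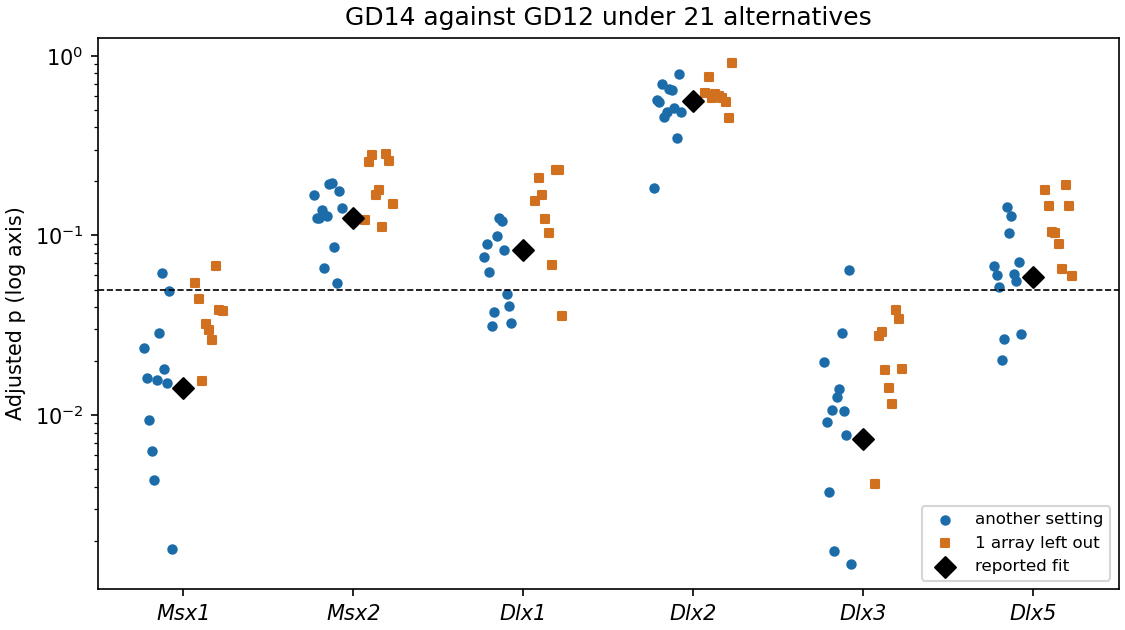
Adjusted p of GD14 against GD12 (vertical axis, log scale) for the 6 genes in the reported fit (black diamonds), with single arrays left out (orange squares) and under 12 other settings (blue circles); the dashed line is at 0.05. Dlx3 lies under the line in 20 of the 21 alternatives and Msx1 in 18, while no alternative brings Msx2 or Dlx2 under it.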

How the data were processed

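The deposited values are 1 intensity per probe set and array on a linear scale, scaled by the authors to a common level: leaving out 2% of values at either end, each array had a mean of 150.1. The software that made the intensities is not given in the sources used here. Intensities were transformed as log2(value + 3), 3 being the rounded 10th percentile of all values, so fold changes of dim genes are understated. The 66 control probe sets and probe sets at or under the 25th percentile of mean log2 (intensity 10.4) were left out. The remaining 9326 were fitted with limma 3.58.1 in R 4.3.3 as 3 group means over all 9 arrays, with Benjamini-Hochberg adjustment over all of them. Intervals are 95% intervals of that fit. The method was tested on simulated data. Single values used exact permutation tests (Python 3.11.15, scipy 1.17.1).

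Same-numbered arrays of different days had residual correlations of 0.19 to 0.42, every one over 0.1, so the numbers were taken to pair the arrays. The reported fit was fixed without the block, so it and the permutation tests leave this pairing out. The block was tried as an alternative, and its value stands beside the result whose call it changed.

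Gene symbols came from the array annotation, matched by gene ID to GRCm38.p6. Members and gene lists were chosen with earlier results of these data known. All 6 members were named whatever their values. For each, the 3 probe sets of highest r were named. Of each list, up to 3 passing genes with the smallest adjusted p in GD14 against GD12 were named, and where none passed the 2 brightest. Some further list genes were named after their values were seen. Alternatives were other scalings, added values, filters, variance models, array weights, an actin covariate, the block, the 2 groups alone and omission of arrays. The alternative called a variance trend also used robust variances, so its effect is not that of the trend alone.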

Additional observations from a re-analysis of the deposited data

How the results depend on the processing

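Of 498 values of the 6 genes under the alternatives, 468 kept the direction and the side of the threshold, 4 lost and 11 gained a call, and 15 changed sign, all of them differences that had not passed. From GD12 to GD14, Msx1 had a log2 of -0.96 at adjusted p = 0.0620 with only the 2 groups, and ranged from -1.08 to -0.82 when single arrays were left out. Dlx3 had 1.51 without the third array of every day. Dlx1 passed with array weights (-1.03), the filter at the median, a variance trend and the replicate block (-0.98 each) and without the third array of every day (-1.25), and ranged from -1.23 to -0.81 when single arrays were left out. Dlx5 passed with array weights (0.70), the filter at the median and a variance trend (0.62 each). The block changed no other call of these genes.

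The sign of the second step minus the first turned for Dlx1 with median scaling (0.018), without the third array of every day (0.15) and without single arrays (-0.34 to 0.38). It turned for Dlx2 with array weights (0.0089), without the third array of every day (0.14) and without single arrays (-0.23 to 0.17), for Dlx3 without single arrays (-0.0042 to 0.47), and for Dlx5 without the third array of every day (0.066) and without single arrays (-0.27 to 0.042). Dlx2 in GD14 against GD13 turned without the third array of every day (0.015) and without the third array of GD14 (0.056; -0.34 over single arrays at the lowest).

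Over all probe sets, 401 were called in GD14 against GD12, 615 with array weights, 620 with the replicate block, 223 with only the 2 groups and 176 to 392 without single arrays. GD13 against GD12 had 60 calls, 201 with array weights, 94 with the filter at the median, 35 with no filter, 34 with only the 2 groups, 10 without the third array of every day, 115 with a variance trend and 17 to 59 without single arrays. GD14 against GD13 had 4 calls, 2 with an added value of 1, 16 with the added value 11, 11 with array weights, 19 with the filter at the median, 26 with a variance trend, 2 with only the 2 groups, 2 with quantile normalization, 0 with no filter, 0 without the third array of every day and 0 to 4 without single arrays. The F-test had 241 calls, 405 with array weights, 369 with a variance trend, 85 without the third array of every day and 86 to 237 without single arrays. The step difference had 0 calls (453 probe sets at an unadjusted p under 0.05), 1 with array weights, 2 with the filter at the median, 1 with the replicate block, 2 with a variance trend and 0 without single arrays. Leaving out the third array of every day was chosen after the data were seen and leaves 2 arrays a day. For the changes the cause was not tested.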
